A study of Rattus norvegicus with 132 samples.

Results

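The medulla of HS rats was compared with the medulla of Sham rats by spatial expression profiling of kidney sections. The comparison rests on 15 of the 132 regions of interest of the series, 6 from HS and 9 from Sham, chosen by the group, area and plate that the labels give them. In this assay (GeoMx digital spatial profiling), light frees the barcodes of probes bound within a hand-picked region of a fixed, paraffin-embedded section, and the freed barcodes are sequenced. The series holds RM-HS, HS, RM and Sham rats, 3 per group, with regions in glomeruli, cortex, corticomedullary junction and medulla. The labels do not expand HS and RM. In work on kidney injury after trauma they commonly stand for hemorrhagic shock and rhabdomyolysis, a reading that the labels do not state, and strain, age and time after injury are likewise not given in the sources used here. The probes were designed for mouse transcripts and used on rat tissue, so each gene is named by its mouse symbol and a low value can come from a probe that binds the rat transcript poorly.

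All 6 HS medulla regions lay on plate E, in 2 runs of consecutive wells (HS run 1 and HS run 2, 3 regions each). Of the Sham medulla regions, 3 lay on plate E (Sham run 3) and 6 on plate C (Sham runs 1 and 2, 3 each). Changes of the genes and lists described in full are therefore also given against the Sham regions of each plate. A change against plate C Sham also holds any difference between the plates. The labels tie neither a region nor a run to an animal. With 3 animals a group, some of the 9 Sham and some of the 6 HS regions share an animal, and all p-values over regions below are too small.

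One HS run stood apart in depth. HS run 1 held 494654 to 1157391 reads per region and HS run 2 held 66598 to 138976, against 611949 to 1065667 in plate E Sham and 977679 to 1572356 in plate C Sham. The mean log2 read number differed by -1.89 between HS and Sham (exact permutation test over regions of which some share an animal, two-sided, p = 0.00719, n = 6 and 9), and by -1.52 within plate E (p = 0.190, exact permutation, n = 6 and 3). Background, read from the negative probe, had a median of 18.2 in HS and 19.2 in Sham (difference of means -0.33, exact permutation p = 0.758, n = 6 and 9). Within plate E the medians were 18.2 in HS and 15.9 in Sham (difference of means 1.62, exact permutation p = 0.381, n = 6 and 3). Results are given with all 6 HS regions, and the calls lost without HS run 2 are counted below. The part of depth in these results was not tested beyond the values given.

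The medulla of the kidney concentrates urine. Its thick ascending limb takes up sodium, potassium and chloride through the cotransporter encoded by Slc12a1, recycles potassium through the channel encoded by Kcnj1, and pays for this transport with mitochondrial ATP in a tissue that is poorly supplied with oxygen. Insulin and glucocorticoids bear on several of the genes below. Insulin holds down Igfbp1 transcription by keeping FoxO factors out of the nucleus, and glucocorticoids raise Tsc22d3 and Dusp1 through their receptor.

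Thick ascending limb and proximal tubule markers set the medulla of both groups apart from the medians of Sham cortex. The summed signal of 8 measured thick ascending limb markers was 1359 to 1811 in HS medulla and 1693 to 3781 in Sham medulla. Its median was 716 in Sham cortex and 1180 at the Sham junction. The summed signal of 10 proximal tubule markers was 360.3 to 487 in HS medulla and 329.6 to 502 in Sham medulla, against 1571 in Sham cortex and 6494 at the Sham junction. The collecting duct and inner medulla lists separated the areas less well. Collecting duct signal was 461 to 804 in HS medulla and 323 to 871 in Sham medulla, against a median of 420 in Sham cortex. Inner medulla and osmolyte signal was 793 to 985 in HS medulla and 574 to 1336 in Sham medulla. Its median was 376 in Sham cortex and 1290 at the Sham junction. Of the 10 proximal tubule markers tested, 0 were called in HS against Sham medulla. No call was made either among the tested members of the collecting duct, podocyte, endothelium, macrophage, neutrophil, fibroblast and pericyte, urothelium and skeletal muscle lists (5, 4, 4, 5, 1, 5, 1 and 4 genes). Summed macrophage marker signal was 204 to 320 in HS and 209 to 326 in Sham. The 2 erythroid genes tested, one of them a globin gene, summed to 385 to 942 in HS and 749 to 3154 in Sham, and neither was called.

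Of 8799 genes tested in limma over regions of which some share an animal, 33 differed between HS and Sham medulla at an adjusted p under 0.05 (0.375%), of which 4 rose (0.0455%) and 29 fell (0.33%). Against plate E Sham alone 24 were called (0.273%), 3 up (0.0341%) and 21 down (0.239%). Against plate C Sham alone 10 were called (0.114%), 5 up and 5 down (0.0568% each). Of the 24 genes called against plate E Sham, 22 were among the 33, and of the 10 called against plate C Sham, 4 were. Of the 33 genes, 31 had the same sign against both plates (0.352% of genes tested), namely the 4 rises (0.0455%) and 27 falls (0.307%). Over all genes tested, 5895 of 8799 had the same sign against both (67%). Both plate comparisons share the 6 HS regions.

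**Figure D1:**
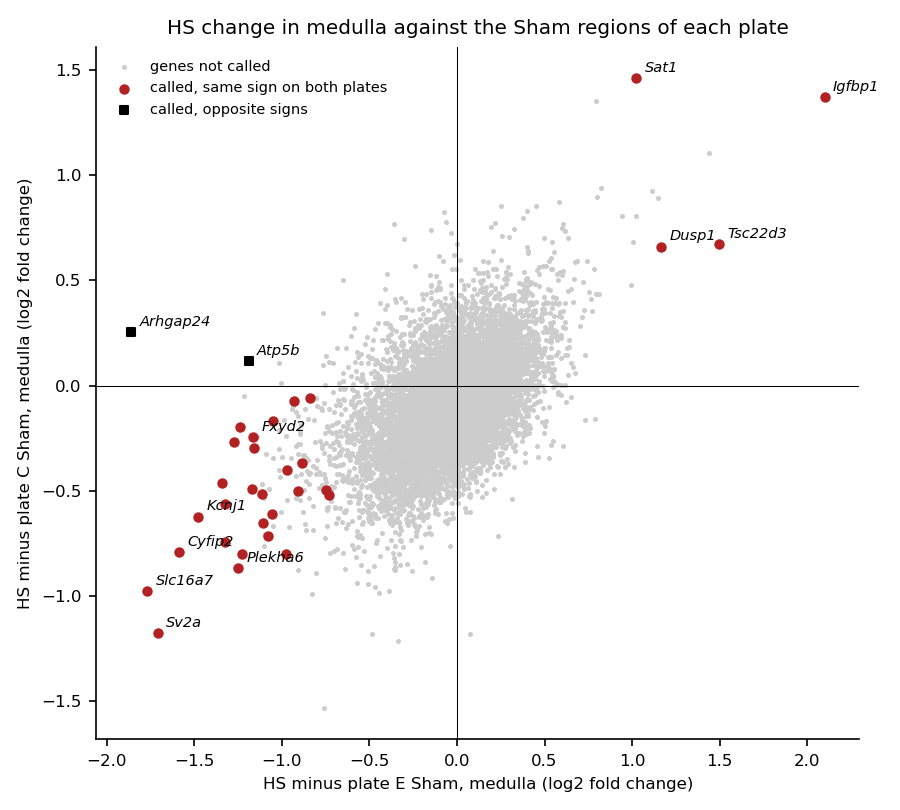
Log2 fold change in medulla of HS against plate E Sham (x axis) and against plate C Sham (y axis) for 8799 genes, from limma. The 31 called genes with 1 sign on both plates (red circles) lie in the upper right (4) and lower left (27), and Arhgap24 and Atp5b (black squares) lie above 0 on the y axis only.

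The other 2 calls turned sign with the plate. Arhgap24, which encodes a GTPase activating protein, was -1.48 ± 0.31 (SE) on the log2 scale in the main fit, which adjusts for plate. It was -1.86 against plate E Sham and 0.25 against plate C Sham. Its signal was 55.9, 67.9 and 60.0 in HS run 1 and 38.8, 14.5 and 39.98 in HS run 2, against 150, 147 and 158 in plate E Sham and 58.2, 56.8 and 68.7 (run 1) and 20.6, 16.2 and 20.4 (run 2) in plate C Sham. The 3 plate E Sham regions were high, and the 6 plate C Sham regions overlapped HS. Atp5b, a subunit of ATP synthase, was -1.28 in the main fit. In the fit by plate it was -1.19 against plate E Sham and 0.12 against plate C Sham. Plain means of its signal were 205 in HS, against 574 in plate E Sham and 262 in plate C Sham, so that its sign against plate C depended on the fit, which also uses the other areas of each run.

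Igfbp1, which encodes a secreted protein that binds insulin-like growth factors, had the largest rise. Its signal was 292, 281 and 302 in HS run 1 and 155, 124 and 156 in HS run 2. In Sham it was 91.6, 44.9 and 53.4 on plate E, and on plate C 82.6, 72.2 and 64.0 (run 1) and 203, 117 and 114 (run 2). HS run 1 lay above every Sham region. HS run 2 lay above every plate E Sham region and overlapped Sham run 2. The log2 fold change was 1.90 ± 0.33 (adjusted p = 0.000329 in limma, over regions of which some share an animal), 2.10 against plate E Sham (adjusted p = 0.000295) and 1.37 against plate C Sham (adjusted p = 0.0234). It was 2.57 without HS run 2 and 1.53 without HS run 1, both called. The rat promoter is shown because it carries sequences of the kind through which insulin acts on this gene. The 250 bases before the RefSeq start (GRCr8, chr14:86261027-86261276, + strand) hold CAAAACA, beginning 121 bases before the start, and CAAAATA on the opposite strand at 110 bases. The capitals mark both, CAAAATA as its reverse complement.
Igfbp1 promoter: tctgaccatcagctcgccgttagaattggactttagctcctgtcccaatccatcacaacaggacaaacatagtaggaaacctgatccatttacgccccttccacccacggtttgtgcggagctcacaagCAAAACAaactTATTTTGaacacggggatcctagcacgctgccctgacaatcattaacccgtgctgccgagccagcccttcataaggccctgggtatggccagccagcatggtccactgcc
Searched on both strands, CAAAACA occurred in 5.46% and CAAAATA in 4.46% of 33469 RefSeq promoters of this length. A match describes the sequence and is no measurement of binding.

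**Figure D2:**
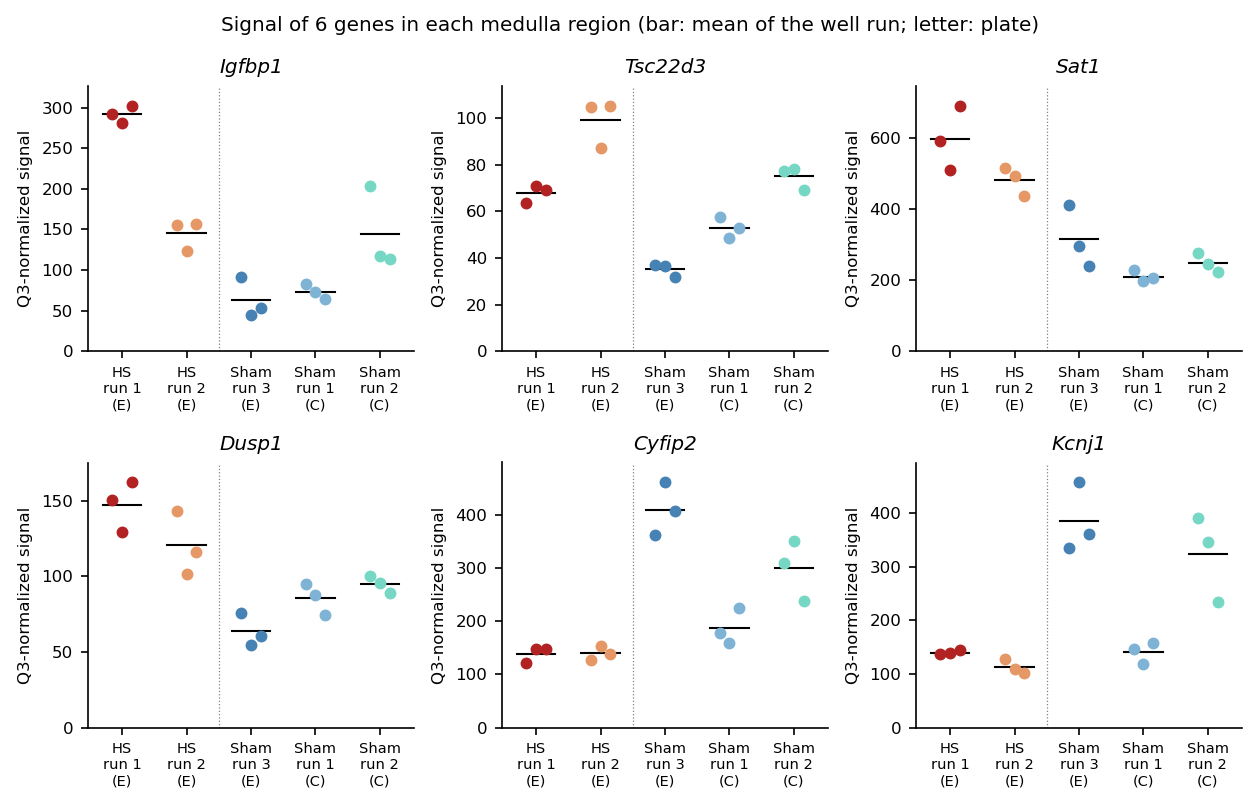
Q3-normalized signal (y axes, from 0) of 6 genes in each medulla region, with HS runs left of the dotted line and Sham runs right of it (E and C name the plate), and bars at run means. Sat1 and Dusp1 are higher in all 6 HS regions than in all 9 Sham regions and Cyfip2 is lower, whereas Kcnj1 in Sham run 1 (118 to 159) overlaps HS (102 to 144).

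Other members of the insulin and FoxO list did not move with Igfbp1 past the threshold. Of 12 tested, 1 was called, 9 lay above both plates' Sham, and the median log2 fold change was 0.23, against -0.02 over all genes, of which 2090 of 8799 lay above both. Txnip, which encodes a thioredoxin-binding protein that curbs glucose uptake, averaged 283 in HS and 170 in Sham (log2 fold change 0.92, adjusted p = 0.435). Ppargc1a, a coactivator of mitochondrial genes, averaged 70.5 in HS and 106 in Sham (-0.79, adjusted p = 0.579).

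All 11 tested genes of the glucocorticoid response list lay above Sham on both plates, and 2 of them were called (Tsc22d3 and Dusp1). Over all genes, 2090 of 8799 lay above both and 4 of 8799 were called up (0.0455%). The list's median log2 fold change was 0.50, against -0.02 over all genes. This list was chosen with earlier results of these data known, and both plate comparisons share the HS regions. Its counts, median and summed signal therefore describe the list and do not test it. Tsc22d3 encodes GILZ, a leucine zipper protein that curbs inflammatory transcription. Its signal was 63.4, 71.1 and 69.3 in HS run 1 and 105, 87.2 and 105 in HS run 2, against 37.0, 36.7 and 31.8 in plate E Sham and 57.6, 48.6 and 52.9 (run 1) and 77.4, 78.4 and 69.4 (run 2) in plate C Sham. All HS regions exceeded plate E Sham and Sham run 1, and HS run 1 overlapped Sham run 2. The log2 fold change was 1.52 ± 0.27 (adjusted p = 0.000373), 1.498 against plate E Sham (adjusted p = 0.00426) and 0.67 against plate C Sham, where it was not called (adjusted p = 0.414).

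Dusp1 encodes a phosphatase that switches off MAP kinases. It read 150, 129 and 162 in HS run 1 and 143, 102 and 116 in HS run 2, against 75.8, 54.6 and 60.9 in plate E Sham and 95.0, 87.7 and 74.5 (run 1) and 100.5, 95.3 and 89.3 (run 2) in plate C Sham. The groups did not overlap, although the lowest HS region (102) and the highest Sham region (100.5) were close. The change was 0.97 ± 0.22 (adjusted p = 0.00875), 1.16 against plate E Sham and 0.66 against plate C Sham (adjusted p = 0.203). The remaining 9 members missed the threshold. Zbtb16, a zinc finger factor, averaged 88.3 in HS and 64.2 in Sham (0.80, adjusted p = 0.161). Per1, a clock gene, averaged 113 and 87.9 (0.50, adjusted p = 0.677), and Nr3c1, the receptor gene itself, 236 and 215 (0.17, adjusted p = 0.995). The summed signal of the 11 genes was 898 to 1047 in HS, against 688 to 707 in plate E Sham and 724 to 822 in plate C Sham, so that HS lay above Sham in every region. Run means were 939.9 in HS run 1 and 968 in HS run 2.
The promoter of Dusp1 is shown for its cyclic AMP response element. In the 250 bases before its RefSeq start (GRCr8, chr10:17184603-17184852, + strand), capitals mark TGACGTCA, beginning 124 bases before the start.
Dusp1 promoter: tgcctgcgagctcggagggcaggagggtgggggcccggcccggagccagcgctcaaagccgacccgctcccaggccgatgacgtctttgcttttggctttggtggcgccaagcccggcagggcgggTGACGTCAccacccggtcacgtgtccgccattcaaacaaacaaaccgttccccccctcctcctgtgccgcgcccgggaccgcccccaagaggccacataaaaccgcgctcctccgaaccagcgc
TGACGTCA occurred in 1.59% of the 33469 promoters. AGAACA, a half-site of the glucocorticoid receptor found in 17.5% of promoters on either strand, did not occur in these 250 bases, nor in those of the 3 RefSeq starts of Tsc22d3. Most promoters lack it in this stretch, and sequence farther away was not searched. Its absence here therefore does not bear on whether the receptor acts on these genes.

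Sat1, which encodes the acetyltransferase that starts polyamine breakdown, rose against the Sham of both plates. Its signal was 593, 512 and 692 in HS run 1 and 516, 494 and 436 in HS run 2, against 411, 297 and 240.1 in plate E Sham and 228, 197 and 206 (run 1) and 277, 244 and 222 (run 2) in plate C Sham. Every HS region exceeded every Sham region. The change was 1.22 ± 0.29 (adjusted p = 0.0158), 1.02 against plate E Sham (adjusted p = 0.255) and 1.46 against plate C Sham (adjusted p = 0.000766). Odc1, the rate-limiting enzyme of polyamine synthesis, averaged 78.5 in HS and 71.4 in Sham (0.28, adjusted p = 0.994), and Sat1 was the only called gene of 6 tested in the polyamine list. The metallothionein genes, whose proteins bind zinc and copper, were not called. Mt1 averaged 461 ± 76.4 in HS and 324 ± 20.3 in Sham (SD, n = 6 and 9; 0.67, adjusted p = 0.283), and every HS region (385 to 589) exceeded every Sham region (298 to 349). Mt2 averaged 2145 ± 421 in HS and 1252 ± 448 in Sham (0.88, adjusted p = 0.231) and passed against plate C Sham alone (1.35, adjusted p = 0.00203). In all, the 6 HS regions lay above the 9 Sham regions for 20 of 8799 genes (0.227%) and below them for 34 (0.386%). Among the 33 called genes this held for 2 rises and 8 falls.

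Cyfip2, which encodes a subunit of the WAVE complex that drives actin branching, fell the most among genes with 1 sign on both plates. Its signal was 122, 148 and 147 in HS run 1 and 128, 153 and 138 in HS run 2, against 361, 461 and 406 in plate E Sham and 179, 159 and 225 (run 1) and 310.1, 351 and 238 (run 2) in plate C Sham. All HS regions lay below all Sham regions, and the means of HS runs 1 and 2 were close (139 and 139.6). The change was -1.44 ± 0.22 (adjusted p = 1.37e-05), -1.59 against plate E Sham (adjusted p = 4.89e-05) and -0.79 against plate C Sham (adjusted p = 0.0993). When each well run was averaged within each area, which leaves 2 HS and 3 Sham means in medulla, Cyfip2 was the only gene called (-1.43, adjusted p = 0.0343).

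Cyfip2 and the 4 rises were the 5 of 33 calls that passed both without HS run 1 and without HS run 2. Without HS run 1, 32 of the 33 passed. Without HS run 2 only these 5 did and 28 falls were no longer called, while 2 further genes were. Those were Btg2, an antiproliferative immediate early gene (1.39, adjusted p = 0.00762), and Ccn2, a matricellular protein gene (1.64, adjusted p = 0.0299). Of the 29 falls, 27 had a lower mean in HS run 2 than in HS run 1. Without the plate E Sham run (HS on plate E against Sham on plate C, no plate term), 4 of the 33 passed: Igfbp1 (1.39), Sat1 (1.47), Plekha6 (-0.87) and Sv2a. Igfbp1 and Sat1 passed with each of these 3 runs left out in turn, but Sat1 was not called without Sham run 2 (1.18, adjusted p = 0.0971). With the log2 read number of each region as a covariate, 21 genes were called, 8 up and 13 down. Of these 21, 17 were among the 33.

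**Figure D3:**
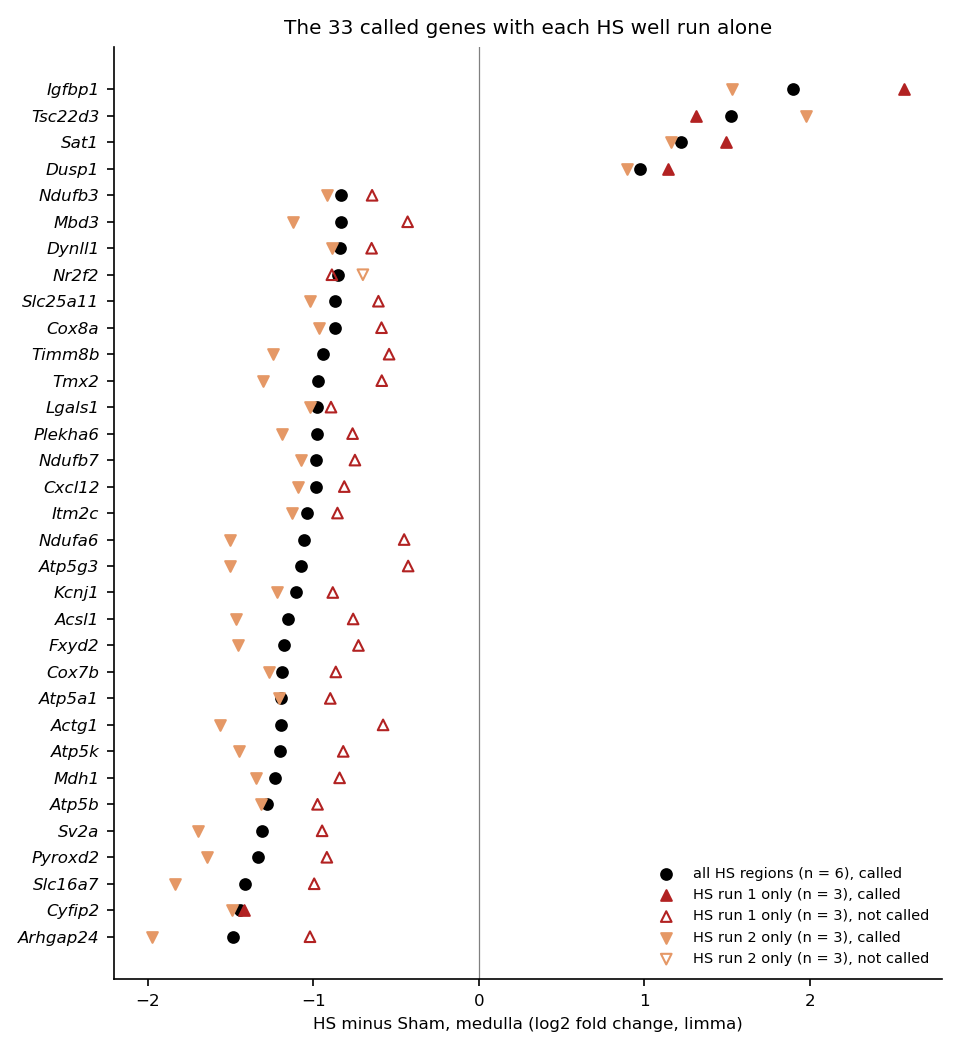
Log2 fold change of HS against Sham medulla for the 33 called genes (rows) with all HS regions (black circles), HS run 1 alone (red triangles) and HS run 2 alone (orange triangles); open symbols missed the threshold. Filled red triangles mark Igfbp1, Tsc22d3, Sat1, Dusp1 and Cyfip2 only.

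The falls in medulla included genes of mitochondrial energy supply. Of 43 tested genes of the respiratory chain and ATP synthase, 8 were called, all down, and 7 of them had the same sign on both plates. Over all genes, 29 of 8799 were called down (0.33%), and 5895 of 8799 had the same sign on both plates (67%). Of the 43, 42 were below 0, against 4623 of 8799 of all genes. The list's median was -0.62, and 31 lay below both plates' Sham, against 3805 of 8799 of all genes. This list, like the thick ascending limb and actin lists below, was also chosen with earlier results of these data known. Counts and medians of these lists, here and by area, therefore describe the lists and do not test them. The called members were Atp5k (-1.20 ± 0.24), Atp5a1 (-1.19), Atp5g3 (-1.07) and Atp5b of ATP synthase, Cox7b (-1.19) and Cox8a (-0.87) of cytochrome c oxidase, and Ndufa6 (-1.05) and Ndufb3 (-0.83) of complex I. Ndufb7 of complex I (-0.98), which the list does not hold, also fell, as did Mdh1 (-1.23) of the tricarboxylic acid cycle, Acsl1 (-1.15), which activates fatty acids, the importer gene Timm8b (-0.94) and the oxoglutarate carrier gene Slc25a11 (-0.87).

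These falls rested on HS run 2 and on the plate E Sham run. The summed signal of the 44 measured genes was 4933 to 5258 in HS run 1 and 3729 to 3777 in HS run 2, against 8342 to 9369.96 in plate E Sham, 4090 to 4455 in Sham run 1 and 6114 to 7864 in Sham run 2. Sham run 1 lay below HS run 1. Atp5k shows this in a single gene: 127, 113 and 110 in HS run 1 and 93.1, 50.9 and 76.3 in HS run 2, against 234, 253 and 204 in plate E Sham and 106, 107 and 89.4 (run 1) and 219, 206 and 184 (run 2) in plate C Sham. The list's median was -0.76 against plate E Sham and -0.11 against plate C Sham. Without HS run 2 it was -0.31 with 0 of 43 called, and without HS run 1 it was -0.69 with 14 called. With log2 reads as a covariate it was -0.39 with 3 called. In bulk regions, fewer cells of a type and less RNA per cell cannot be told apart.

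The thick ascending limb list moved with the mitochondrial genes. Of 8 tested, Kcnj1 was called, 7 lay below both plates' Sham, and the median was -0.70 (-0.91 against plate E Sham and -0.31 against plate C Sham). Over all genes, 3805 of 8799 lay below both and 29 of 8799 were called down (0.33%). The list's median was -0.43 without HS run 2 and -0.59 with log2 reads as a covariate, with 0 of 8 called in each. Kcnj1 read 137, 139 and 144 in HS run 1 and 128, 109 and 102 in HS run 2, against 336, 458 and 362 in plate E Sham and 146, 118 and 159 (run 1) and 392, 347 and 234 (run 2) in plate C Sham. The HS regions lay below plate E Sham and Sham run 2, and Sham run 1 overlapped them. The change was -1.10 ± 0.27 (adjusted p = 0.0239), -1.48 against plate E Sham (adjusted p = 0.00257) and -0.62 against plate C Sham (adjusted p = 0.439), and it was not called without HS run 2 (-0.88, adjusted p = 0.888). Slc12a1 averaged 722 in HS and 1280 in Sham (-0.82, adjusted p = 0.460), and Egf, which the same segment makes, 282 and 493 (-0.79, adjusted p = 0.438). Fxyd2, the regulatory subunit of the sodium pump, fell (-1.18 ± 0.24, adjusted p = 0.00319), the only call among 7 tested genes of the sodium pump and ion transport list (median -0.25). It was -1.16 against plate E Sham and -0.24 against plate C Sham (adjusted p = 0.0181 and 0.840), and it was not called without HS run 2 (-0.73). The summed thick ascending limb signal averaged 1794 in HS run 1 and 1504 in HS run 2, against 3442 in plate E Sham, 1887 in Sham run 1 and 2752 in Sham run 2. The runs had the same order in the mitochondrial list but for HS run 1 and Sham run 1, and the part of thick ascending limb content in the mitochondrial falls was not tested.

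**Figure D4:**
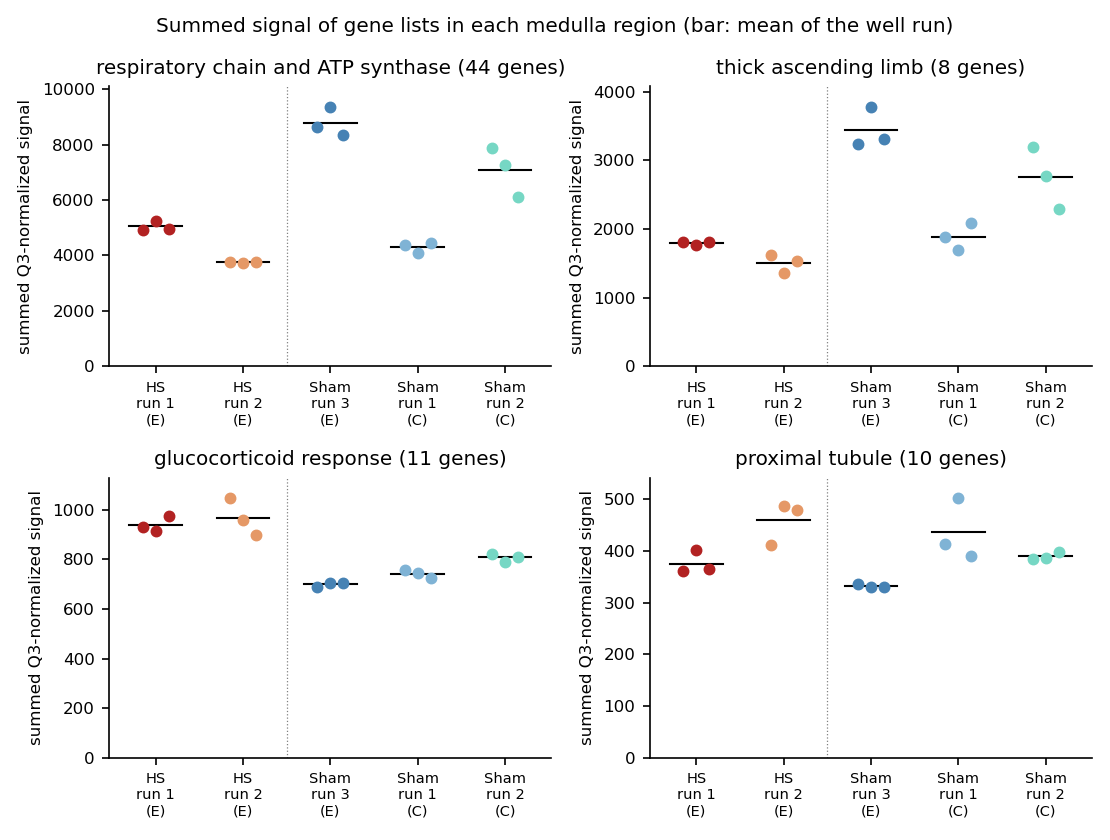
Summed Q3-normalized signal (y axes, from 0) of 4 gene lists in each medulla region, HS runs left of the dotted line and Sham runs right, with bars at run means. Mitochondrial and thick ascending limb signal in Sham run 1 (4090 to 4455 and 1693 to 2080) lies near HS and far below plate E Sham, while the glucocorticoid list is higher in all HS regions.

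Among the remaining falls, several genes kept clear of Sham run 1 as well. Plekha6, a pleckstrin homology domain gene, was called against each plate (-0.98 ± 0.21 in the main fit, -1.25 against plate E Sham and -0.87 against plate C Sham, adjusted p = 0.000122 and 0.00457). Without HS run 2 it was called against plate E Sham (adjusted p = 0.0129) but not against plate C Sham (-0.65, adjusted p = 0.227). Its signal was 58.2 to 100.03 in HS and 108 to 243 in Sham. Sv2a, a transporter-like protein of synaptic vesicles, was lower and called against each plate too (adjusted p = 0.000187 and 0.00702), but without HS run 2 not against plate C Sham (adjusted p = 0.448). It read 7.27 to 29.5 in HS and 32.2 to 62.6 in Sham. Its HS values lie around those of the negative probe in HS (14.8 to 21.1), so that no fold is given. At 66598 to 138976 reads a region in HS run 2, values this low rest on few reads. The chemokine gene Cxcl12 averaged 58.3 ± 8.0 in HS and 90.6 ± 18.4 in Sham (-0.98, adjusted p = 0.00979) and the galectin gene Lgals1 25.3 ± 5.95 and 47.9 ± 6.69 (-0.98, adjusted p = 0.025), neither with overlap between the groups. Against 1 plate's Sham alone neither passed (-0.89 and -0.97 on plate E, -0.37 and -0.80 on plate C). Lgals1 in HS (19.4 to 35.4) also lay near the negative probe in HS (14.8 to 21.1), so that the size of its fall is uncertain. Slc16a7, a monocarboxylate transporter gene, averaged 42.6 ± 13.98 in HS and 107 ± 44.9 in Sham (-1.42 ± 0.26, adjusted p = 0.000416; -1.77 against plate E Sham and -0.98 against plate C Sham), but Sham run 1 (48.3 to 56.6) overlapped HS (25.4 to 62.5). Pyroxd2, an oxidoreductase gene, fell by 1.34 on the log2 scale (-1.23 against plate E Sham and -0.80 against plate C Sham). Of 15 tested genes of the list on actin regulation, 3 were called, all down (Cyfip2, Actg1 and Arhgap24), against 29 of 8799 of all genes called down. The list's median was -0.32 (-0.35 against plate E Sham and 0.08 against plate C Sham), and 4 lay below both plates' Sham, against 3805 of 8799 of all genes. Smaller falls were those of Itm2c, Tmx2, Nr2f2, Dynll1 and Mbd3 (-1.04 to -0.83). Of these falls, only that of Cyfip2 was called in the main fit without HS run 2.

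Lists of injury and stress showed no call in the main fit. Of 14 tubular injury and repair genes, 0 were called and the median was 0.09. Its lowest p values were those of Sox9, a factor of tubular repair (36.6 in HS and 20.3 in Sham, adjusted p = 0.473), and Krt18, a keratin (92.2 and 74.1, adjusted p = 0.662). Of 17 immediate early genes, 15 glycolysis and hypoxia genes, 10 heat shock genes, 11 unfolded protein and integrated stress response genes and 6 of ferritin and iron, 0 were called, with medians between -0.17 and 0.06. The immediate early list does not hold Dusp1, which was called and is counted in the glucocorticoid response list. Klf6, an immediate early factor, averaged 123 in HS and 90.4 in Sham (adjusted p = 0.435), Hspe1, a mitochondrial chaperonin, 46.1 and 74.9 (adjusted p = 0.131), and Vegfa 48.6 and 53.6 (adjusted p = 0.852). Medians were 0.25 over 11 metallothionein and NRF2 genes, 0.28 over 8 extracellular matrix genes, -0.34 over 6 inner medulla and osmolyte genes, and -0.13 over 19 cytosolic ribosome genes, with 0 calls in each. The extracellular matrix median was 0.71 with 1 call without HS run 2 (0.015 without HS run 1), and the immediate early median was then 0.30 with 1 call. Without HS run 1, tubular injury and repair held 1 rise, and heat shock, unfolded protein and extracellular matrix 1 fall each. In medulla regions only (512 calls), 2 tubular injury genes and 1 immediate early gene were called up. Called down there were 4 glycolysis and hypoxia, 2 heat shock and 2 unfolded protein genes. The ribosome list's median was 0.09 against plate C Sham. The chemokine and cytokine list held 1 call (Cxcl12) among 7 tested, with a median of 0.06. The fatty acid oxidation and tricarboxylic acid cycle lists held 1 call each (Acsl1 and Mdh1) among 10 and 11 tested, with medians of -0.36 and -0.44. In limma, 589 of 8799 genes had an unadjusted p under 0.05.

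Next, the medullary change was set against those in cortex and at the junction, each HS against Sham with 9 regions a group. The HS effect in medulla differed from the mean of the other areas for 89 genes (1.01%, limma, over regions of which some share an animal), 3 higher (0.0341%) and 86 lower (0.977%). Of the 33 genes called in medulla, 21 were among those lower. Both tests hold the same medulla change, so that part of this overlap is built in. None of the 4 rises passed the test by area. Igfbp1 was 1.90 in medulla, 1.42 at the junction (adjusted p = 0.0097) and 1.99 in cortex (adjusted p = 4.34e-06), and the difference was 0.19 (adjusted p = 0.849). Tsc22d3 was 1.52, 0.98 (adjusted p = 0.0599) and 1.68 (adjusted p = 2.79e-06) in the same order, Sat1 1.22, 1.48 (adjusted p = 0.000669) and 0.88 (adjusted p = 0.446), and Dusp1 0.97, 0.56 and 0.53. Cyfip2 was -1.44, -1.02 (adjusted p = 0.00281) and -0.84 (adjusted p = 0.106), with a difference of -0.51 (adjusted p = 0.213).

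The falls of mitochondrial genes did differ by area with all runs. Depth also differed by area in HS run 2, at 66598 to 138976 reads per region in medulla. It was 335363 to 370053 at the junction and 187967 to 510154 in cortex. The part of depth in the area differences was not tested. Of the 43 respiratory chain and ATP synthase genes, 14 were lower in medulla than in the other areas and 0 higher, against 86 and 3 of 8799 over all genes. The list's median change was -0.62 in medulla, -0.15 at the junction and 0.17 in cortex. Atp5k was -1.20 in medulla, -0.38 at the junction and 0.11 in cortex (difference -1.07 ± 0.20, adjusted p = 0.00174), and Ndufa6 -1.05, -0.40 and 0.31 (difference -1.01, adjusted p = 0.00174). Actg1, a cytoplasmic actin gene, had the lowest p: it fell in medulla (-1.20, adjusted p = 0.00807) and rose at the junction (1.12, adjusted p = 0.0097), a difference of -1.85 (adjusted p = 1.82e-09). Its signal was 453 to 503 in HS run 1 and 160 to 251 in HS run 2, against 925 to 1022 in plate E Sham and 453 to 819 in plate C Sham. Arpp19, a phosphatase inhibitor gene, averaged 20.7 in HS and 35.0 in Sham medulla and was not called there (-1.01, adjusted p = 0.0639), yet its difference by area was (-1.16, adjusted p = 0.00271). In HS run 2 its signal (7.27 to 14.5) lay below the negative probe's (14.8 to 17.6). Without HS run 2 the area difference was called for 3 genes: Actg1 (-1.69, adjusted p = 3.34e-06), Nr2f2 (-0.95, adjusted p = 0.0341) and Uqcr11 (-1.16, adjusted p = 0.00893), the last named after its value was seen. HS run 3 has cortex and junction regions but none in medulla, and without it 15 differences were called.

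**Figure D5:**
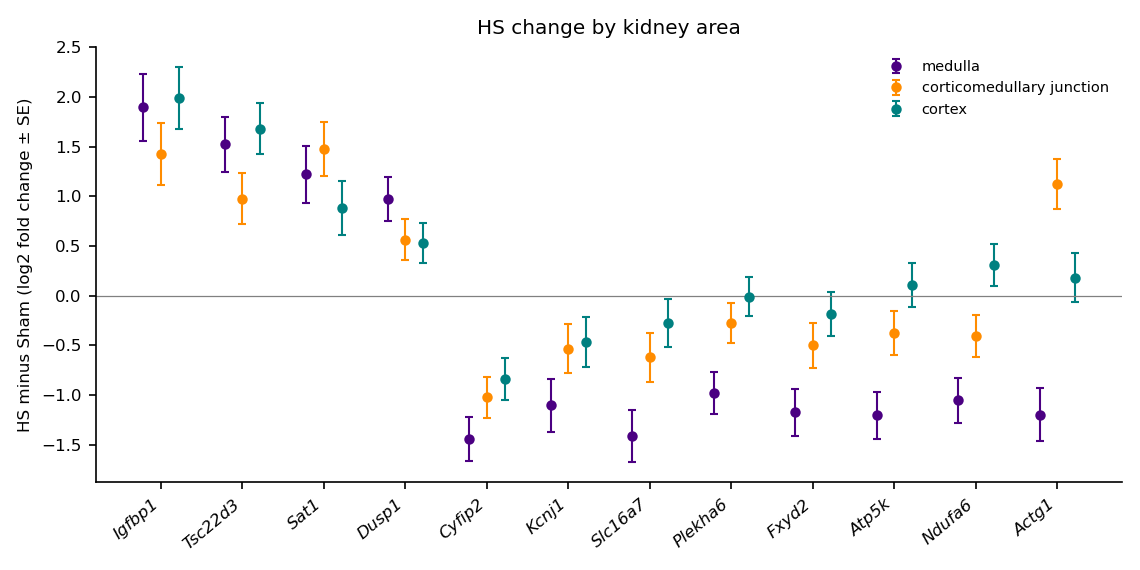
Log2 fold change (± SE, limma) of HS against Sham in medulla, at the corticomedullary junction and in cortex for 12 genes. The 4 rises lie above 0 in all 3 areas, while Atp5k, Ndufa6 and Actg1 are below 0 in medulla and above 0 in cortex (0.11, 0.31 and 0.18).

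Several of these genes were also read in the medulla of the injuries that include RM, against the same Sham regions. Igfbp1 was 3.92 in RM-HS, 2.50 in RM and 1.90 in HS, and Sat1 2.77, 2.33 and 1.22. Tsc22d3 was -0.14 in RM-HS, -0.49 in RM and 1.52 in HS, and Dusp1 0.34, 0.59 and 0.97. Cyfip2 was -1.69, -1.37 and -1.44, close in all 3. Of the mitochondrial genes, Atp5k was 0.06 in RM-HS, -0.07 in RM and -1.20 in HS, and Ndufa6 -0.11, -0.37 and -1.05. The RM-HS and RM medulla regions lay on plate C, and differences between the injuries were not tested.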

How the data were processed

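The deposited table holds 9271 genes and 1 negative-probe value for 132 regions, as signal that the authors normalized to each region's upper quartile (Q3), per the labels and the table's name. Builds named in the submitters' processing notes are GRCh38 and hg38. Their role, the software and the versions are not given in the sources used here. Each region's values were whole multiples of 1 step (within 0.01), and the sum of these steps is given as reads. Genes were tested where at least 10% of regions exceeded the negative probe 2-fold (8799, 472 left out). With limma 3.58.1 (R 4.3.3, statmod 1.5.0), log2(signal + 1) of 131 regions was fitted with 16 means of injury and area and a plate term; well runs were a random effect (consensus correlation 0.132), variances were trended, and two-sided p-values were Benjamini-Hochberg adjusted. Errors of fold changes are SE. All HS regions lay on plate E and all fitted RM and RM-HS regions on plate C, so that Sham alone informs the plate term. That term was called for 52 genes. A second fit with means by plate gave the changes against each plate's Sham. The main fold change is no average of these and can lie outside both, as for Tsc22d3 (1.52, against 1.498 and 0.67). Both fits weigh a run's other areas, so that fold changes can differ from those of plain means. A gene was called at an adjusted p under 0.05. Tested on simulated data with 8799 genes, the fit of HS against Sham in medulla recovered 80% of 100 genes changed by 1 (log2) and 100% of 100 changed by 2, with 13 false among 193 calls. The simulation gave each gene the same spread in every region and held neither the low depth of HS run 2 nor shared animals. Its rates check the fit and are not error rates of these data. Fold changes of low genes are understated by the added 1.

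Members and the 34 gene lists were chosen with earlier results of these data known. Named genes were the 14 largest rises and falls with 1 sign on both plates, list members with the lowest p, the 4 lowest p of the area difference and 6 fixed genes. Members of cell type lists with no call are given as list values. Txnip, Ppargc1a, Zbtb16, Per1, Nr3c1, Odc1, Slc12a1, Egf and Uqcr11 were named after their values were seen, as were the called genes beyond that rule. Promoters are from RefSeq (GRCr8), in which 8432 of 9271 symbols occur. No 2 regions were identical. A few genes are not reported here. Single values of a region were compared by exact permutation (scipy 1.17.1).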

Additional observations from a re-analysis of the deposited data

Results flagged for a closer look

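Single medulla regions lay far from the rest of their group in 5 of the 134 sets of regions checked (3.73%; chance gives about 1 in 20). The figure given for each is the gap to the nearest region as a share of the group's range. In HS, region 5 (HS run 2) was low for Vegfa (14.5, next 50.4; share 0.716) and Tmx2 (7.27, next 31.0; share 0.653). In Sham, region 4 (Sham run 2) was high for Igfbp1 (203, next 117; share 0.545), and region 7 (plate E) was high for Sat1 (411, next 297; share 0.532) and Mt2 (2316, next 1494; share 0.559).

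The HS effect in medulla differed from the mean effect in cortex and at the junction for 27 named genes, all lower in medulla (limma, adjusted p under 0.05, over regions of which some share an animal). On the log2 scale, differences of actin, dynein and matrix genes were -1.85 for Actg1, -0.76 for Dynll1 and -0.74 for Sparc. Those of ATP synthase genes were -1.07 for Atp5k, -1.11 for Atp5g3, -1.16 for Atp5b and -1.01 for Atp5a1. Those of the respiratory chain were -1.01 for Ndufa6, -0.73 for Ndufb7, -0.92 for Uqcrc1, -0.84 for Uqcr11, -0.87 for Cox7b and -0.90 for Cox8a. Other mitochondrial and lipid genes gave -1.002 for Timm8b, -1.11 for Mdh1, -0.67 for Slc25a11 and -0.79 for Acsl1. Transport genes gave -0.83 for Fxyd2, -0.97 for Slc16a7 and -1.02 for Slc6a6. The remaining differences were -0.84 for Plekha6, -0.86 for Mbd3, -1.16 for Arpp19, -0.75 for Nr2f2, -0.79 for Canx, -0.75 for Itm2c and -0.80 for Tmx2. Without HS run 2, Actg1, Nr2f2 and Uqcr11 were the 3 genes called among all 8799.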

How the results depend on the processing

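The 33 calls of HS against Sham in medulla became 10 against plate C Sham alone, 13 with no plate term, 256 with no block on the well run, 1 when well runs were averaged, 512 in medulla regions only, 105 with quantile normalization and 21 with log2 reads as a covariate. Chosen after seeing the data, quality weights gave 266 and thinning to the shallowest medulla region 615 (379 up, 236 down). The 89 differences by area became 217 with no block. Leaving out 1 well run gave 7 to 354 calls for HS against Sham and 3 to 585 for the area difference (7 and 3 without HS run 2, 187 and 585 without HS run 1, 18 and 8 without Sham run 2, 12 and 27 without the plate E Sham run, 354 and 15 without HS run 3, a choice made after seeing the data). Counts under the other alternatives run (no trend, pseudocount of 5, no filter, the 50% filter, negative probe subtracted, plate E Sham alone and, for the area difference, no plate term and quantile normalization) stayed within 1.5 times, as did those without Sham run 1. The causes were not tested.

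Over the 33 called genes, 475 of 689 recomputed values kept sign and call, 210 lost the call and 4 changed sign. Against plate C Sham, values turned to 0.12 (Atp5b), 0.25 (Arhgap24), 0.11 (Vegfa), 0.091 (Rplp2) and 0.089 (Rps24), and without the plate E Sham run to 0.13, 0.25, 0.12, 0.10 and 0.095. Leaving out 1 run gave -1.59 to 0.13 for Atp5b, -1.98 to 0.25 for Arhgap24, -0.77 to 0.12 for Vegfa, -0.76 to 0.10 for Rplp2 and -0.48 to 0.095 for Rps24. Odc1 turned to -0.18 in medulla regions only and Slc11a2 to -0.062 when thinned. No paired analysis was possible because the labels carry no replicate numbers. The planned count tests (edgeR, DESeq2) were not run. Regions of HS run 2 limit what can be detected among low genes.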
